A study of Drosophila melanogaster with 3 samples.

Results

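Weak peaks in coding sequence were 4005 of the 27719 peaks that the authors' pooled call placed on 6 chromosome arms of Drosophila melanogaster. They were taken from the 23097 pooled peaks whose signal, the peak caller's own strength value, lay below 101.785, the lowest signal of the 4622 peaks in the authors' thresholded list. Of those weak peaks, 4005 had a summit in annotated coding sequence more than 500 bp from all transcription start sites (TSSs) of protein-coding genes, which is 17.3% (95% Wilson interval 16.9 to 17.8%). The members were thus selected on low pooled signal and on place, and neither property is a finding. The assay was chromatin immunoprecipitation with sequencing (ChIP-seq) of the transcription factor Pdp1 in whole embryos aged 0 to 24 h, of pooled sexes, with chromatin sheared to 200 to 800 bp. All 3 biological replicates belonged to a single group of the Pdp1-MiMIC-GFP strain, in which an artificial eGFP exon inside an intron of the gene turns its product into a Pdp1-eGFP fusion, and an anti-GFP antibody was used. Lists from other genotypes or from mock precipitations were not analysed here. Whole embryos mix all tissues and all stages of the first day, so a cell type cannot be assigned to any peak. Read numbers were not analysed here, so depth is unknown, and all intervals below cover counting error only.

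Pdp1 is a basic leucine zipper factor of the PAR family, known in flies as an activator of the circadian gene Clk and as a regulator of muscle genes. Such factors are usually mapped at promoters and enhancers, while coding exons carry the codons of the protein and are rich in G and C in this genome. Relaxed peak lists are made long on purpose for the irreproducible discovery rate (IDR) procedure, and the authors' own listing describes these lists as holding peaks together with background. The 4005 summits therefore show what the lower end of such a list holds in exons.

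The sequences at 6 of the summits are shown, because base composition was a property in which the members differed from other coding sequence. Each run holds the summit base and 50 bases on either side, on the coding strand of the gene, with the 21 bases centred on the summit in capitals, from the RefSeq Release 6 (dm6) genome. The initial 5 come from the 6 members of highest pooled signal found in all 3 replicate lists, and the last has the lowest G and C content (GC) of the members found in all 3 lists. Ten-m also has the highest GC of those members.
sgg: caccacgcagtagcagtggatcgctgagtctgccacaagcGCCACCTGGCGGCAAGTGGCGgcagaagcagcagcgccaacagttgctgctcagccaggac
spir: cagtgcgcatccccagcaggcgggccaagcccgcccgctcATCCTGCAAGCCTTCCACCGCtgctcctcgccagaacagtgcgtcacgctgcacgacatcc
His2Av: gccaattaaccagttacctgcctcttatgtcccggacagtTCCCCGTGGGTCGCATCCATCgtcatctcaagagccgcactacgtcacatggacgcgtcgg
Ten-m: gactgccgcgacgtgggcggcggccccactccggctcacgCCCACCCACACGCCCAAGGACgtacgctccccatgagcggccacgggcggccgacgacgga
SF1: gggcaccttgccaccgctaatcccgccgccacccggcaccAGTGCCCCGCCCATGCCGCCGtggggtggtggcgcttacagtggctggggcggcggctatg
su(w[a]): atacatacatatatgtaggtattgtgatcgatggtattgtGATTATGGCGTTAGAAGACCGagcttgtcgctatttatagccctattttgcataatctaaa
The sgg window, at chrX:2659618-2659718 on the plus strand, was 64.4% G and C. That of spir, at chr2L:20312005-20312105 on the plus strand, was 68.3% and that of His2Av, at chr3R:26867630-26867730 on the plus strand, 57.4%. The window of Ten-m, at chr3L:22407062-22407162 on the minus strand, was 76.2% G and C and that of SF1, at chr3R:17544746-17544846 on the plus strand, 74.3%. The window of su(w[a]), a gene of a splicing regulator, lay at chrX:1041562-1041662 on the plus strand and was 34.7% G and C. Its bases were coding for 79.2% of the window, and those of His2Av for 61.4%, so these windows run into neighbouring non-coding sequence. The other 4 windows were coding throughout.

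The strongest members found in all 3 replicate lists differed in how high each list ranked them. The signal of a replicate list is the authors' and is not scaled between lists, whose median signals were 21.3, 15.1 and 15.2 in replicates 1, 2 and 3. The summit in sgg, the gene of the kinase GSK-3, which acts in the Wingless pathway and the clock, had a pooled signal of 90.1 and list signals of 40.7, 14.4 and 31.9 in replicates 1, 2 and 3. These lists ranked it 5092, 16593 and 5148, and in replicate 2 its signal was below the median of the list. It lay in coding exon 1 of 10, at 9.08% of the coding length and 902 bp from the nearest TSS. The summit in spir, which encodes the actin nucleator Spire, had 88.0 in the pooled list and 44.7, 18.9 and 23.1 in the replicate lists. It too lay in the initial coding exon, at 7.69% of the coding length. His2Av, the gene of the only H2A variant of the fly, had 86.5 pooled and 51.1, 20.996 and 22.4 by replicate, in a coding exon of 114 bp. Its summit was 985 bp from a thresholded summit, so a strong peak was nearby. Ten-m, which encodes a teneurin adhesion protein, had 86.1 pooled and 49.8, 16.4 and 17.2 by replicate. There the nearest thresholded summit was 118567 bp away, and the member sat at 0.801% of a coding length of 10050 bp. SF1, a splicing factor gene, had 81.1 pooled and 29.5, 27.0 and 18.6 by replicate, in the last of its 6 coding exons.

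The other 7 of the 12 strongest members found in all 3 lists had pooled signals between 77.1 and 84.3. HisRS, for histidyl-tRNA synthetase, had list signals of 36.3, 17.6 and 22.4 in replicates 1, 2 and 3, and Adsl, for adenylosuccinate lyase of purine synthesis, had 23.7, 36.2 and 23.0. The list of replicate 2 ranked Adsl 3479, among its top 4622 peaks, and the lists of replicates 1 and 3 ranked it 12330 and 8117. The zinc finger gene elB had 28.6, 27.9 and 15.7, and Pex23, a peroxin gene, had 37.9, 21.1 and 12.7. Myd88, for the adaptor of the Toll receptor, had 26.1, 22.9 and 21.9, and the zinc finger gene Aef1 had 24.6, 22.5 and 22.4. The lists ranked Aef1 11510, 6350 and 8395, so none had it among its top 4622 peaks. CG6191, the strongest of these 7 in the pooled list, had 43.3, 13.9 and 22.9.

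Members were narrow in signal. Their pooled signal ran from 28.8 to 90.1 with a median of 35.9 and an interquartile range of 32.0 to 42.3, while the 19092 other weak summits had a median of 41.1 and reached 101.8. These values chose the members and carry no test. All 4005 member peaks were 410 bp wide, as were 3206 of the 4622 thresholded peaks (69.4%), so the width of a member says nothing of the extent of enrichment. Because of that width, 363 members (9.06%) overlapped another member and share sequence with it. Around the threshold, the members just inside were those of sgg with 90.1, Usp1, a deubiquitinase gene, with 89.1, and spir with 88.0. Just outside, the thresholded coding summits under the same place rule lay in CG10962 with 103.4, Cap-H2, a condensin subunit gene, with 104.6, and CG33181 with 104.7. Usp1 had no summit within 100 bp in the replicate 1 list, and list signals of 30.8 and 29.0 in replicates 2 and 3. Cap-H2 had a summit in the replicate 1 list with 61.03 and none within 100 bp in the lists of replicates 2 and 3.

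Coding summits were a larger share of the lower-ranked than of the top-ranked peaks, and this held in each replicate without use of the pooled signal. Each replicate list was divided after its top 4622 peaks, the number that the thresholded list holds. Eligible coding sequence, that is coding bases more than 500 bp from a protein-coding TSS, held 5058 of 25378 lower-ranked peaks (19.9%) in replicate 1, against 20 of the top-ranked (0.433%). In replicate 2 it held 4550 of 25377 lower-ranked peaks (17.9%), against 36 of the top-ranked (0.779%). In replicate 3 it held 3348 of 25378 lower-ranked peaks (13.2%), against 11 of the top-ranked (0.238%). The difference was 16.5 ± 3.31 percentage points (SD, n = 3), with the lower-ranked share above the top-ranked share in 3 of 3 replicates and no overlap between the groups. The exact two-sided permutation test over replicates gave p = 0.25, the smallest value that 3 replicates allow. For scale, eligible coding sequence made up 18.9 Mb of the 133.9 Mb on these arms, or 14.1%, so the lower-ranked share was above that fraction in replicates 1 and 2 and below it in replicate 3. In the thresholded list 13 of 4622 summits (0.281%, interval 0.164 to 0.481%) were in such sequence.

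**Figure D1:**
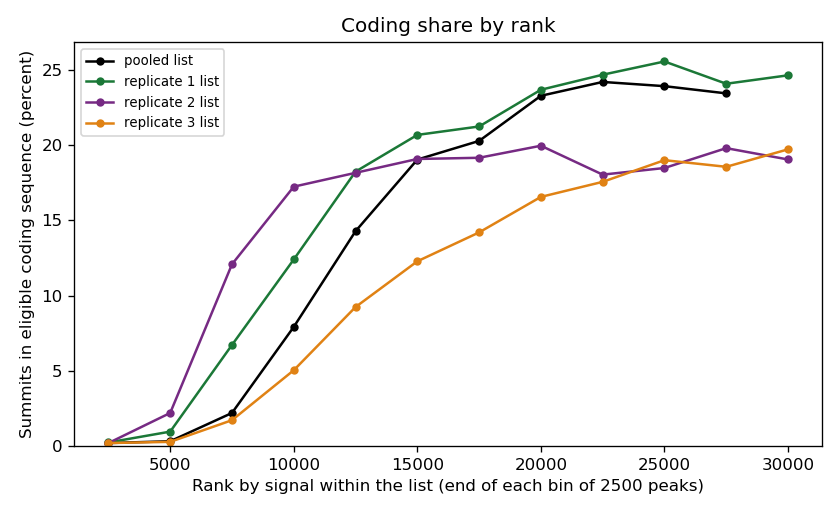
Share of summits in eligible coding sequence (percent) by rank within the list, in bins of 2500 peaks from the strongest, for the pooled list and the lists of replicates 1, 2 and 3. All 4 lines start at 0.2 to 0.24% in the strongest bin, and the pooled line ends at 23.44% in the bin up to rank 27500, with the 219 weaker pooled peaks (18.7%) not drawn and with replicate 2 climbing earlier, at smaller rank numbers, than replicates 1 and 3.

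The climb was gradual and differed between the lists in where it began. In the bin of ranks 5001 to 7500 the coding share was 6.72% in replicate 1, 12.08% in replicate 2 and 1.72% in replicate 3. By the last bin of each list it was 24.64%, 19.05% and 19.72%. Replicate 2 thus had reached most of its final share by rank 10000, with 17.24%, where replicate 3 had 5.04%. In the pooled list the share was 22.9% in the weakest of 10 equal parts of the weak peaks by signal, 20.7% in part 5, 12.6% in part 8 and 1.52% in part 10, the strongest.

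Most members were found in 1 replicate list or in none. A member counted as found when a list held a summit within 100 bp. The list of replicate 1 held 2210 of the 4005 members (55.2%, interval 53.6 to 56.7%), that of replicate 2 held 1455 (36.3%, 34.9 to 37.8%) and that of replicate 3 held 1174 (29.3%, 27.9 to 30.7%). Of the other weak summits, 59.4%, 38.2% and 52.8% were found in replicates 1, 2 and 3. The pooled list was called on the same reads, so some match is built in. Members were found less often in 3 of 3 replicates, with differences of -4.20, -1.91 and -23.5 percentage points in replicates 1, 2 and 3 and a mean of -9.85 ± 11.8 points (SD, n = 3). The exact two-sided permutation test gave p = 0.25, the smallest possible, and the SD was larger than the mean. Without replicate 3 the mean was -3.05 points. Signal differed between these groups, and within 10 equal parts of pooled signal the differences were 5.47, 3.45 and -13.2 points, with a mean of -1.41 (exact p = 1), so the direction turned round in replicates 1 and 2. The part of signal in the presence difference was otherwise not tested.

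**Figure D2:**
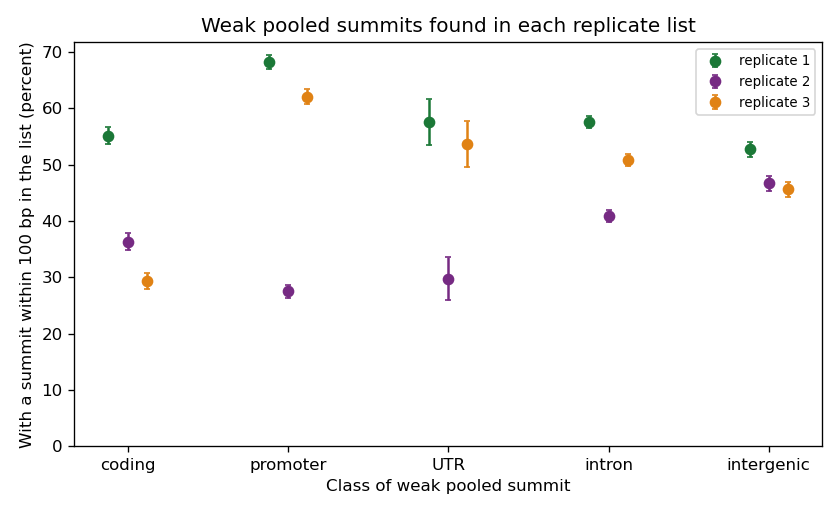
Share of weak pooled summits (percent) with a summit within 100 bp in the list of each replicate, by class of the summit, with 95% Wilson intervals as bars. Coding summits are at 55.2, 36.3 and 29.3% in replicates 1, 2 and 3. Coding is the class with the lowest share in replicate 3 but not in replicates 1 and 2.

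Members found in every list were few. All 3 lists held 135 members (3.37%, interval 2.86 to 3.98%), against 2130 other weak summits (11.2%). A further 1137 members (28.4%) were in 2 lists, 2160 (53.9%) in 1 list and 573 (14.3%) in none. For other weak summits these shares were 37.4%, 42.2% and 9.28%. The largest single pattern was presence in replicate 1 alone, with 1094 members, and replicate 2 alone held 665 and replicate 3 alone 401. Of the pairs, replicates 1 and 2 shared 499 members, replicates 1 and 3 shared 482, and replicates 2 and 3 shared 156. As a level for unselected sequence, 5.31%, 4.80% and 3.54% of all eligible coding bases lay within 100 bp of a summit of the lists of replicates 1, 2 and 3, and 0.131% did so for all 3 lists.

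Presence followed pooled signal, which is built from the same replicates. With the members in 4 equal parts by signal, from the weakest to the strongest, 1, 1, 11 and 122 members were in all 3 lists. The strongest part thus held 122 of the 135 (12.2% of its 1002 members). Members in none of the lists made up 25.9, 18.4, 10.2 and 2.79% of these parts. Within each replicate list the matched members ranked in the middle, with median ranks of 15986, 14293 and 18241. Only 11, 23 and 0 of the members were among the top 4622 peaks of replicates 1, 2 and 3, and a count of 0 allows a share of up to 0.0958% (Wilson).

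Matching the replicate lists to each other, without the pooled list, gave lower values. Of the lower-ranked coding summits of replicate 1, 13.8% had a summit within 100 bp in the list of replicate 2 and 15.1% in that of replicate 3, against 20.999% and 35.7% of the other lower-ranked summits. Those of replicate 2 were found at 15.2% in replicate 1 and 7.32% in replicate 3, against 17.6% and 16.4%. Those of replicate 3 were found at 23.1% in replicate 1 and 10.1% in replicate 2, against 32.8% and 18.4%. Coding summits were thus the less often matched in all 6 directions, which share lists and are not independent. The coding share was higher toward the weaker ranks of each list, and the part of rank in these differences was not tested. Matching between lists was chosen as a measure after seeing the data. Between 2.73 and 3.88% of a replicate's lower-ranked coding summits were in both other lists.

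Members lay in the GC-rich part of coding sequence. The windows reaching 50 bp to either side of their summits had a median of 58.4% G and C, with an interquartile range of 54.5 to 63.4% and extremes of 27.7 and 82.2%. All eligible coding bases, measured in the same way, had a median of 53.5% and an interquartile range of 47.5 to 58.4%. Above the median of the eligible bases were 3136 members (78.3%, interval 77.0 to 79.6%), against 46.1% of the bases themselves. Below their lower quartile were 184 members (4.59%), against 21.8% of the bases. The other weak summits had a median of 41.6% and the thresholded summits 33.7%. Weak summits in promoters (44.6%), introns (40.6%), UTRs (41.6%) and intergenic sequence (41.6%) were all below the members and below coding sequence as a whole.

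**Figure D3:**
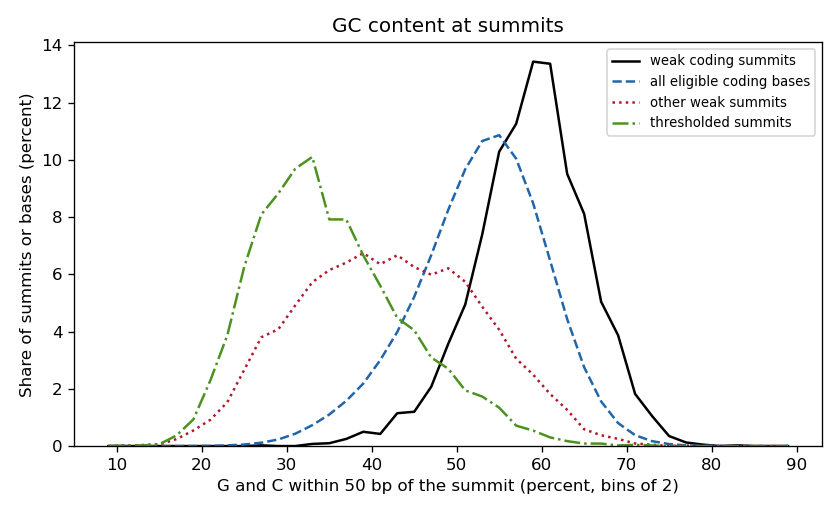
Distribution of the G and C content of the windows reaching 50 bp to either side (percent, bins of 2) for the weak coding summits, all eligible coding bases, the other weak summits and the thresholded summits, each as a share of its own total. The medians are 58.4, 53.5, 41.6 and 33.7%, so the members lie to the right of coding sequence and the thresholded summits to the left.

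The number of members per 100 kb of eligible coding sequence climbed with GC over the whole range. It was 3.11 where the window was under 40% G and C, 7.62 at 45 to 50%, 26.4 at 55 to 60%, 73.8 at 65 to 70% and 110.1 at 70% or more. The lower-ranked coding summits of the replicates' own lists, which were not selected on pooled signal, had 5.70 ± 1.03 per 100 kb under 40% (SD, n = 3), 12.4 ± 1.88 at 45 to 50%, 28.1 ± 6.51 at 55 to 60% and 78.7 ± 22.5 at 70% or more. At 70% or more the lists gave 88.4, 94.8 and 53.0 per 100 kb in replicates 1, 2 and 3, and under 40% they gave 4.74, 6.79 and 5.56. The range over replicates in the GC-richest band thus did not overlap that in the GC-poorest band, though replicate 3 climbed less. The median GC of these lower-ranked coding summits was 57.4, 57.4 and 56.4%, against 42.6, 44.6 and 41.6% for the other lower-ranked summits of the same lists.

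**Figure D4:**
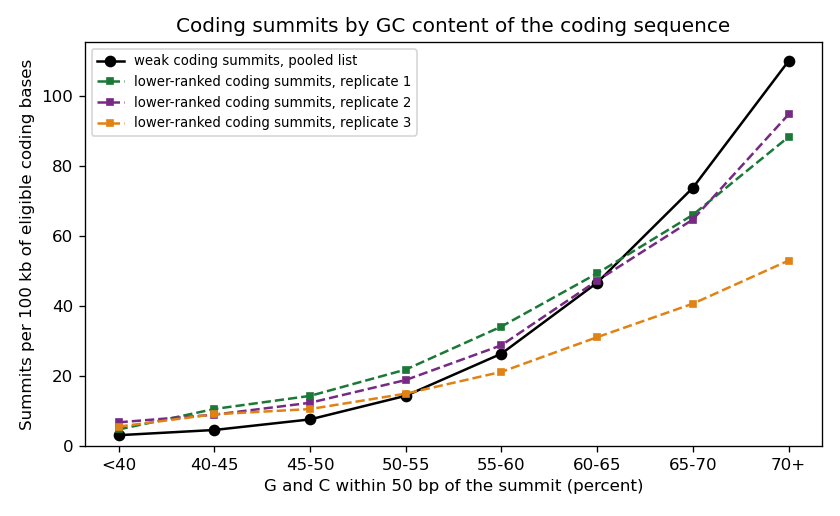
Coding summits per 100 kb of eligible coding bases, by the G and C content of the same windows, for the 4005 weak coding summits of the pooled list and the lower-ranked coding summits of each replicate list. All 4 lines climb from under 7 per 100 kb below 40% G and C, to 110.1 in the pooled list and to 53.0 to 94.8 in the replicates at 70% or more.

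GC was a local feature of the summits. The mean GC of 51 bp windows was 59.1% at the summits of members and 53.1% at eligible coding bases, and 500 bp upstream in genome coordinates it was 46.2 and 47.1%. At that distance 52.3% of the members' positions were still coding, against 65.02% for all eligible bases, so part of this drop came from leaving the exon. In 3681 pairs of a summit and a coding position 500 bp away, a part of all such pairs, the summits had a median of 58.4%. The flanks of these pairs had a median of 54.5%. The summit was the richer of the pair in 65.5% and the poorer in 29.4%. The thresholded summits showed the opposite shape, with 35.1% at the summit and 43.9% at 500 bp. The median GC at wobble positions of codons was 68.0% over the members' genes and 64.3% over eligible coding bases, so the members' genes were themselves slightly richer.

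**Figure D5:**
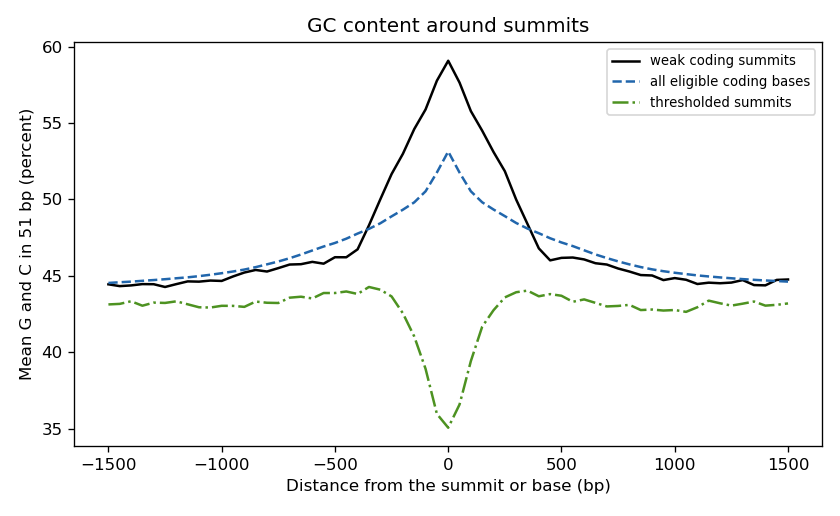
Mean G and C content of 51 bp windows (percent) by distance from the summit, or from the base for all eligible coding bases, in bp. The weak coding summits peak at 59.1% at distance 0, the eligible coding bases at 53.1%, and the thresholded summits dip to 35.1%.

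Stronger and better matched members were richer in G and C by a few bases per window. From the weakest to the strongest of 4 equal parts by signal the median was 57.4, 58.4, 59.4 and 60.4%, each step being 1 base of the window. Members in none, 1, 2 and 3 lists had medians of 58.4, 58.4, 59.4 and 61.4%. The share in all 3 lists was 2.63% under 40% G and C, 3.18% at 55 to 60% and 8.03% at 70% or more, on 38, 1194 and 137 members. The climb was not steady, with 1.22% at 40 to 45%, 0.784% at 45 to 50% and 2.28% at 50 to 55%.

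The PAR factor site and 3 other short motifs each occurred at no more than 7 members, and the opa repeat at many more. Either strand was searched, in the window of 50 bp to each side. The PAR factor site TTACGTAA or TTATGTAA was at 3 of 4005 members (0.0749%, interval 0.0255 to 0.220%), against 0.147% of all eligible coding windows, 0.733% of the other weak summits and 1.19% of the thresholded summits. The interval includes the value of coding sequence. The DNA replication-related element TATCGATA was at 4 members (0.0999%), against 0.0835% of coding windows and 2.23% of thresholded summits. The repeats GAGAGAGA and CACACACA were at 7 members each (0.175%), against 0.135 and 0.246% of coding windows. They were at 0.843 and 2.40% of the other weak summits and at 0.519 and 1.02% of the thresholded summits, so these repeats were less common at thresholded than at other weak summits. The opa repeat CAGCAGCAG, which on the coding strand gives runs of glutamine or, in other frames, serine or alanine, was at 181 members (4.52%, interval 3.92 to 5.21%), against 2.82% of coding windows, 0.959% of other weak summits and 0.0865% of thresholded summits. The lower-ranked coding summits of the replicates' own lists held it at 4.51, 4.62 and 3.52% in replicates 1, 2 and 3, each above the coding windows. The groups compared differed in GC, and its part in the motif shares was not tested. A match describes the letters in the window and does not show binding.

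The commonest excess over coding sequence belonged to runs of G and C. Among 722 6-mers with at least 200 occurrences in the members, GCCGCC had the highest ratio to eligible coding sequence, 2.16, followed by CGCCGC with 2.15, CCGCCG with 2.11 and CCGCCC with 2.10. In the replicates' own lists GCCGCC had ratios of 1.81, 1.71 and 1.59. Over all 6-mers the median ratio climbed with the number of G and C, from 0.36 with none to 0.907 with 3 and 1.78 with 6. Relative to the median of all 6-mers with as many G and C, the highest of the 722 was AATGGT with 1.39, and GCCGCC had 1.21. AATGGT itself had a ratio of 0.958 to eligible coding sequence, so it was not more common in the members. The 722 were picked for being common in the members and the medians were not, so this ranking cannot single out a 6-mer. This search was added after seeing the data.

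Along the gene, members were spread over the whole coding length with a modest excess near its start. This holds for the pooled list, and these positions were not counted in the replicates' own lists. On the longest coding transcript, which held 3890 of the members, divided into 10 equal parts from start to stop, part 1 had 29.5 members per 100 kb of eligible bases, part 2 had 27.5 and parts 4 to 7 had between 18.4 and 18.7. Coding sequence near the start is GC-rich, so each part was also set against the number expected if members followed only the 8 bands of GC, a calculation added after seeing the data. The observed number was 1.18, 1.19 and 1.09 times the expected one in parts 1, 2 and 3 and between 0.89 and 1.04 times in the other 7. Initial coding exons held 13.9% of members against 9.23% of eligible bases, last exons 30.9% against 25.4%, and internal exons 45.3% against 57.0%. Coding exons that were the only one of their transcript formed a separate class, with 9.90% of members against 8.32% of eligible bases. Members were less often near exon edges: 11.7% were within 50 bp of the edge of their coding exon, against 20.6% of eligible bases, with a median distance of 211 against 168 bp. Unlike the 10 parts, the exon classes and edge distances were not set against GC, and its part in them was not tested.

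Distance from start sites divided the replicates. At 501 to 1000 bp from the nearest protein-coding TSS there were 27.6 members per 100 kb, or 1.32 times the number expected from GC, and beyond 5000 bp there were 17.5, or 0.781 times. In the replicates' own lists the nearest class had 36.2, 20.3 and 26.8 lower-ranked coding summits per 100 kb in replicates 1, 2 and 3, and the farthest class had 17.2, 31.8 and 9.43. Replicates 1 and 3 thus had more near start sites and replicate 2 had more far from them. Over the 3 replicates the nearest class had 27.8 ± 8.01 and the farthest 19.5 ± 11.3 (SD, n = 3), and the ranges over replicates overlapped. Thresholded summits were also nearer to members than to coding bases in general, with a median distance of 6561 against 8477 bp, and 5.69% of members were within 1000 bp of one, against 3.69% of eligible bases. Within 500 bp of one there were only 4 members (0.0999%), against 0.301% of eligible bases.

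The chromosome arms differed in density. The X chromosome had 16.7 members per 100 kb, 563 in number, and the major autosome arms 2L, 2R, 3L and 3R had 21.8, 22.2, 22.2 and 23.4 per 100 kb. Set against the number expected from GC, the X had 0.641 times as many and the 4 autosome arms 1.06 to 1.13 times. In pooled sexes the X is present in fewer copies than the autosomes, and its part in this value was not tested. The own lists had 23.3, 17.1 and 15.1 lower-ranked coding summits per 100 kb on the X in replicates 1, 2 and 3, against 28.5, 28.3 and 18.4 on 3R, the X being the lower in 3 of 3. Chromosome 4 had 8 members, or 3.11 per 100 kb, where 14.6 were expected from GC, a ratio of 0.549. None of these 8 was found in the list of replicate 2, while 50% were in that of replicate 1 and 37.5% in that of replicate 3. Lower-ranked coding summits of the own lists on chromosome 4 came to 14.8, 0.778 and 12.8 per 100 kb in replicates 1, 2 and 3.

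The members lay in many genes, mostly with a single summit each. They fell in 3076 of the 12499 genes with eligible coding sequence (24.6%), of which 2393 had 1 summit, 510 had 2, 123 had 3 and 50 had at least 4. Genes with a member had a median of 1680 bp of eligible coding sequence, and those without had 846 bp. With the genes in 5 equal parts by this length, the share with a member was 5.32, 16.2, 22.9, 33.0 and 45.6% from short to long. Per 100 kb there were 28.1, 29.9, 24.96, 24.0 and 17.6 members in these parts, so the longest genes had the lowest density and the second shortest part the highest. Only 4 members were in coding sequence of at least 2 genes, so nearly all could be tied to 1 gene. In 261 members (6.52%) the summit was also in a UTR of some transcript, against 5.82% of eligible bases.

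The 8 genes with the most members held between 5 and 8 each. They were picked on count alone, which is not scaled by coding length or GC. Their longest coding transcripts ran from 2652 bp in Eip74EF to 40623 bp in Msp300. A high count therefore does not show a density above that of other coding sequence. SNF4Agamma, for the gamma subunit of the energy sensor AMPK, had 8, with pooled signals of 29.7 to 61.2. The summits at 3R positions 21178737 and 21178946 had overlapping peaks, as did those at 21174992 and 21175267, and none of the 8 was in all 3 lists. The gene lola, for a BTB zinc finger factor with many alternative exons, had 7 members of 31.3 to 65.9, of which 6 were outside its longest coding transcript and 1 pair overlapped. Msp300, for the muscle nesprin that anchors nuclei, had 7 members in a gene with 40623 bp on its longest coding transcript, with signals of 31.6 to 53.4. The gene btsz, for a synaptotagmin-like protein of epithelia, had 6, of which 5 were between 18.95 and 49.96% of its coding length and 1 was at 70.8%, and those at 24.0 and 25.5% overlapped. The genes shot, for a spectraplakin linking actin and microtubules, Eip74EF, for an ecdysone-induced ETS factor, and Mhcl, for a myosin heavy chain-like protein, had 6 each, with 1 overlapping pair in Eip74EF and 1 in Mhcl. In fs(1)h, for the BET bromodomain protein of the fly, 5 members had signals of 73.4, 63.6, 38.4, 33.9 and 32.1, those with 38.4 and 33.9 overlapping. The strongest of these was in the list of replicate 1 only, with 38.9.

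The gene lists were chosen with earlier results of these data known, and each is described by its counts beside the 24.6% of all eligible genes and the 21.2 members per 100 kb of all eligible sequence. The lists also differ in coding length and GC, so the number expected from GC is given with the observed number. Of 15 lists, early patterning and homeotic genes had the highest share with a member, 21 of 29 (72.4%). They held 27 members, or 65.5 per 100 kb, where 16.2 were expected from GC, a ratio of 1.66, and their median GC was 64.4%. The own lists held 23, 22 and 14 lower-ranked coding summits in these genes in replicates 1, 2 and 3. The homeotic gene abd-A had the strongest member of this list, with a pooled signal of 63.7 and a summit in the list of replicate 1 only. The pair-rule gene hry had 48.8 and was in all 3 lists, with 14.3, 16.0 and 15.9, and opa, a pair-rule zinc finger gene, had 48.7 and was in replicates 1 and 2 with 22.8 and 17.6.

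The replicates' own lists differed in which gene lists their lower-ranked coding summits fell in. Over all genes these summits numbered 5058, 4550 and 3348 in replicates 1, 2 and 3. The lists are given in an order chosen after their counts were seen, and the differences between replicates were not tested. Cytosolic ribosomal protein genes had 18 members in 17 of 79 eligible genes (21.5%), which is 65.9 per 100 kb and 2.12 times the number expected from GC. In the own lists the count was 20, 1 and 20 in replicates 1, 2 and 3. RpL8 had the strongest, with 70.6 pooled, 35.7 in replicate 1 and 11.1 in replicate 2. RpS7 had 68.9 pooled, with 42.4 in replicate 1 and 16.7 in replicate 3, and RpS27A had 54.8 pooled, with 32.3 and 16.8 in the same replicates. Each of these 3 was thus missing from 1 list. The list named highly transcribed housekeeping genes held 17 members in 13 of 26 genes, or 54.6 per 100 kb and 1.73 times the number expected. Its own-list counts were 24, 10 and 20. The name is a label only, because transcription was not measured here. The elongation factor gene eEF1alpha1 was in all 3 lists, with 34.8, 14.6 and 11.6, and betaTub56D and alphaTub67C, for tubulins, had pooled signals of 56.9 and 52.6. Coactivators and chromatin remodellers had 31 members in 15 of 23 genes, at 0.946 times the number expected from GC, and their own-list counts were 51, 14 and 31. Polycomb group genes had 10 members in 9 of 19 genes, at 0.860 times the number expected, and own-list counts of 15, 3 and 13. Heat shock protein genes had 5 members in 5 of 20 genes, at 0.722 times the number expected, with 7, 1 and 4. Notch pathway genes had 14 members in 11 of 24 genes, at 0.858 times the number expected, the strongest in E(spl)m3-HLH with 50.7, and own-list counts of 20, 12 and 14. The gene mam, for the coactivator Mastermind, had a member of 48.7 in a window of 71.3% G and C. Replicate 2 had the lowest count in these 6 lists.

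In other lists the count was highest in replicate 2. Cadherins and epithelial polarity genes had 11 members in 8 of 22 genes, or 7.41 per 100 kb and 0.426 times the number expected from GC, the lowest ratio of the 15 lists. Their own-list counts were 18, 48 and 12 in replicates 1, 2 and 3. The strongest members were in baz with 40.1, scrib with 38.9 and sdt with 37.4, and that of scrib was in no replicate list. Extracellular matrix genes had 27 members in 11 of 21 genes, at 0.693 times the number expected, with own-list counts of 25, 47 and 13. SPARC, for a collagen-binding protein of basement membranes, had the strongest of these with 56.2, and vkg, for a collagen IV chain, had 41.4. Contractile muscle genes, a class that Pdp1 is known to act on, had 33 members in 14 of 30 genes, at 0.89 times the number expected, with own-list counts of 40, 69 and 17. Obsc had 77.6, with 23.6 in replicate 1 and 27.4 in replicate 2. The actin gene Act57B had 69.2 and was in all 3 lists with 17.4, 29.96 and 12.1, and Tm1, for tropomyosin, had 56.1 and was in replicate 1 only. Axon guidance and neuronal adhesion genes had 36 members in 22 of 32 genes, at 0.976 times the number expected, with own-list counts of 28, 62 and 27, and large cytoskeletal and motor protein genes had 26 members in 12 of 21 genes, at 0.868 times, with 31, 38 and 16. Odorant and gustatory receptor genes had 8 members in 8 of 119 genes (6.72%), the lowest share of the 15 lists, with a median GC of 52.5%, 0.898 times the number expected and own-list counts of 10, 24 and 7.

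Circadian clock genes, another class tied to Pdp1 in flies, had 15 members in 9 of 18 eligible genes. This was 33.8 per 100 kb and 1.30 times the number expected from GC, with own-list counts of 12, 14 and 9, highest in replicate 2 by a few summits. Beside sgg, the strongest were in mts, for the catalytic subunit of protein phosphatase 2A, with 60.2, and in ctrip, for a ubiquitin ligase, with 59.1, and each was in the lists of replicates 1 and 3 and not in that of replicate 2. Of the 15, 1 was in all 3 lists. Cpr cuticle protein genes had 10 members in 10 of 61 genes and 1.01 times the number expected, with own-list counts of 15, 15 and 3.

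The 13 thresholded summits that met the same place rule were a varied set. They had pooled signals of 103.4 to 1035 and a median GC of 57.4%, with extremes of 40.6 and 69.3%. The strongest, in the homeobox gene otp, had list signals of 414.2, 281.8 and 342.8 in replicates 1, 2 and 3, and Pde1c, a phosphodiesterase gene, had 188.6, 91.0 and 139.9. Above 150 in pooled signal there were also Ubr1 with 167.5, CG10357 with 292.8 and klar with 364.8. These 5 were in all 3 lists. Of the other 8, with 103.4 to 141.4, 3 were in all 3 lists, namely those of CG10962, CG33181 and CG43245. All 3 lists thus held 8 of these 13 summits, and 135 of the 4005 members below the threshold. The thresholded list passed IDR and the members were chosen on low pooled signal, so a difference in this direction is built into the selection.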

How the data were processed

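Peak lists were used as deposited by the authors in the narrowPeak format, in dm6 coordinates. Per the listings deposited with them, relaxed lists (30000 peaks per replicate) were called against a control and on pooled replicates, and a thresholded list passed IDR. Which aligner and peak caller were used is not given in the sources used here. The deposited signal of a peak ranked, filtered or described peaks within its list. The deposited −log10 q-value was read and not used in a test. The deposited summit offset was added to the peak start. The dm3 lists were not used.

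Summits were set against Ensembl release 115 gene models and the RefSeq Release 6 genome with Python 3.11.15, NumPy 2.4.6 and SciPy 1.17.1. Coding meant coding in any protein-coding transcript. The promoter class (within 500 bp of a TSS) took precedence. Background values are exact over all eligible coding bases, without sampling. The 2 comparisons over replicates used exact two-sided sign-flip permutation tests, and the code was tested on simulated data. Members and gene lists were chosen with earlier results of these data known. Genes were named by rules: the 12 strongest members in all 3 lists, the 8 genes with most members, up to 3 members of each gene list, and 3 on either side of the threshold. A few thresholded coding peaks and chromosome 4 values were named after their values were seen. Of the list entries, 262 matched by symbol, 4 by synonym and 3 not at all. Comparisons with GC bands, 6-mers, own-list values and matching between replicate lists were added after seeing the data. The replicates are biological, per the labels. Alternatives were other start site distances, coding definitions, signal ranges, windows, match distances and list depths, and leaving out each replicate.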

Additional observations from a re-analysis of the deposited data

How the results depend on the processing

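The mean of either comparison over replicates kept its sign under each alternative run: the coding share of lower-ranked minus top-ranked peaks stayed between 11.5 and 19.0 percentage points, and the presence of members minus other weak summits between -13.8 and -1.41, though within 10 equal parts of signal that difference was positive in replicates 1 and 2 (5.47 and 3.45) and -13.2 in replicate 3. No p could pass 0.05 with 3 replicates. The coding share of weak peaks, 17.3%, became 12.2% at 1000 bp from start sites, 19.8% at 250 bp, 16.2% without bases in any UTR and 11.6% in the upper part of the weak peaks by signal, divided at their median. That upper part held 1337 members in 1206 genes, where the whole had 4005 in 3076. Requiring a member in all 3 lists left 134 genes, and requiring both remaining lists with a replicate left out gave 285 (without replicate 1) to 596 genes. Median GC, 58.4%, was 59.4% at 1000 bp, 60.4% in the upper part by signal, 61.4% for members in all 3 lists, 56.6% in windows of 401 bp and 59.4 to 60.4% with a replicate left out. The share in all 3 lists, 3.37%, was 6.42% with a match distance of 200 bp, 1.47% at 50 bp, 0.3995% with the upper part of each list and 9.65% in the upper part by signal. With both remaining lists required it ran from 7.27%, without replicate 1, up to 15.8%. The cause was not tested, except that fewer lists, fewer peaks and other distances change these counts by construction. Both comparisons are differences within a replicate, so each is already paired, and no groups of samples were compared. Without depth, signals of different lists cannot be compared.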
